A study of Mus musculus with 3 samples.

Results

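Pi16-positive fibroblasts (Pi16+ FBs) of the aged mouse thymus were taken from single-cell RNA sequencing of its nonhematopoietic stroma. A called cell barcode was a Pi16+ FB when it held more than 1000 genes, mitochondrial (mt-) genes below 20% of its unique molecular identifiers (UMIs), at least 1 UMI of Pdgfra and at least 2 UMIs of Pi16. It also had to hold 0 UMIs of Epcam (epithelium), Pecam1 (endothelium), Upk3b (mesothelium) and Ptprc (blood cells, CD45). There were 951 such barcodes of 17677 called ones. The comparison group, Pi16-zero FBs, held at least 1 Pdgfra UMI and 0 Pi16 UMIs under the same exclusions and had 3111 barcodes. Barcodes with exactly 1 Pi16 UMI belonged to neither group.

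Pi16 encodes a secreted peptidase inhibitor family protein. Fibroblasts that express it together with Dpp4 (the surface peptidase CD26), Ly6c1 and Cd55 are known from many organs, where they lie in the adventitia of large vessels and in the connective tissue sheaths and capsule that surround the parenchyma. They are rich in elastic fiber proteins and are regarded as a reservoir for other fibroblasts. In the thymus, fibroblasts of the capsule and septa are set apart from medullary fibroblasts, which lie among medullary epithelium and express Ptn (pleiotrophin, a heparin-binding growth factor) and Postn (periostin, a matrix protein of remodeling tissue).

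The mice were untreated C57BL/6 animals of 20 months, and thymi were pooled for each library. The libraries were the Foxn1 lineage trace female (Foxn1Lin female), the Foxn1 lineage trace male (Foxn1Lin male) and the wild type male, each the sole library of its group (n = 1). Foxn1, the master transcription factor of thymic epithelial cells (TECs), drives Cre in the traced mice and thereby switches on tdTomato for good, so the reporter transcript marks cells with a TEC history. The wild type cell type field names PECAM1+ cells while its title names CD45- stroma. The library held 1776 Pdgfra+ barcodes without the excluded markers, 855 TECs and 778 endothelial cells (ECs), so it was not limited to ECs. Values below are given in the order Foxn1Lin female, Foxn1Lin male and wild type male unless stated, and a level, in counts per 1000000 (CPM), is a gene's UMIs scaled to 1000000 UMIs summed over the barcodes of a group in 1 library.

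The libraries held 8616, 3583 and 5478 called barcodes with 33386621 to 61258534 UMIs. The Foxn1Lin female library stood apart, with 26.5% of its UMIs outside called barcodes against 12.9% and 9.46%, and with the fewest UMIs per called barcode (a median of 4675 against 7431 and 7947). Each pair of libraries shared 3 to 14 barcode sequences. Pi16+ FBs were deeper than Pi16-zero FBs in every library, with a median of 8102, 12003 and 8827.5 UMIs against 5810.5, 9069 and 8033.5. The rule asks for 2 UMIs of Pi16, and the part of depth in who passed it was not tested beyond the thinned shares given below.

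Pi16 itself chose the cells, so its level is a description. It was 1438, 945 and 1309 CPM in Pi16+ FBs, and a member held from 2 to 114, 81 and 63 Pi16 UMIs, with a median of 6, 7 and 9. The other genes that name these cells were higher in Pi16+ than in Pi16-zero FBs of each library. They are described without their test, since they were named with earlier results known. Mfap5, a microfibril protein, was at 1250, 707 and 670 CPM against 308.5, 83.4 and 28.3. Clec3b (tetranectin, a plasminogen-binding protein) was at 1378, 1146 and 1143 against 644, 292.5 and 199. The groups did not overlap across libraries for either gene, although the Pi16-zero FBs of the Foxn1Lin female library came closest. Opcml, a cell adhesion protein of the IgLON family, was at 1392, 971 and 1346 CPM against 75.1, 22.5 and 33.1. Dpt (dermatopontin, a collagen-associated matrix protein) differed least, at 1451, 1014 and 1353 against 719, 425 and 729.

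For Opcml, the barcodes next to the threshold lay between both groups. In the Foxn1Lin female library, Opcml was at 148 CPM in barcodes with 1 Pi16 UMI and at 424 in those with 2. In the Foxn1Lin male library these levels were 129 and 151, and in the wild type male library 253 and 715. Barcodes with exactly 2 Pi16 UMIs numbered 132, 13 and 36 among the members. Across classes of rising Pi16 count, Opcml, Dpp4, Smpd3 and Cd55 had their highest level in a class of 5 or more UMIs in each library, and Ptn had its highest level at 0 Pi16 UMIs. In the wild type male library Dpp4 was at 3.62, 17.7, 41.9, 73.3, 149 and 422 CPM at 0, 1, 2, 3 to 4, 5 to 9 and 10 or more Pi16 UMIs. Smoc2, which encodes a secreted calcium-binding matrix protein, was highest in the class of 2 UMIs in all 3 libraries, at 1400, 495 and 728 CPM.

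**Figure D1:**
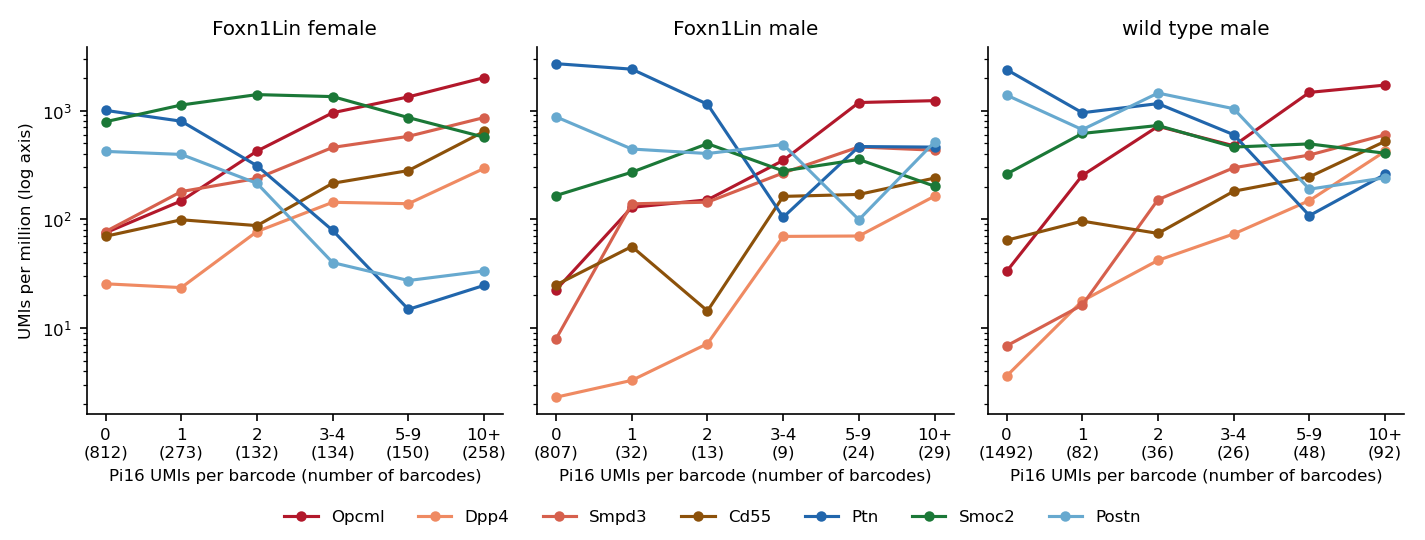
Level of 7 genes (CPM, log axis) in Pdgfra+ barcodes grouped by their Pi16 UMIs, with the number of barcodes in parentheses, 1 panel per library. Points are summed levels with no replicate. Opcml and Dpp4 climb with the Pi16 count, Ptn is highest at 0 Pi16 UMIs, and Smoc2 peaks at 2 in each library.

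Pi16+ FBs were 38.3% of Pdgfra+ barcodes in the Foxn1Lin female library (674 of 1759, 95% Clopper-Pearson interval 36.0 to 40.6), 8.21% in the Foxn1Lin male library (75 of 914, 6.51 to 10.2) and 11.4% in the wild type male library (202 of 1776, 9.93 to 12.9). The share was highest in the female library, and the intervals of both male libraries overlapped. These intervals cover counting error alone, and with 1 library a group no test between libraries was possible. Sex and library cannot be told apart here. After each barcode was thinned to 3000 UMIs before the rule was applied, the shares were 24.1%, 5.41% and 7.27%, and that of the female library was still the highest.

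Free Pi16 RNA moved with this share. Droplets without a called cell held Pi16 at 451, 42.5 and 98.6 CPM, and its part in the shares was not tested. In ECs, which should lack the gene, 3.29%, 0.393% and 0.514% of barcodes held at least 2 Pi16 UMIs, at a median depth of 4504, 7620 and 7371 UMIs. In TECs these shares were 3.80%, 0.251% and 0.585%, at a median of 10987.5, 13207 and 17261 UMIs. With every barcode thinned to 3000 UMIs, at least 1 Pi16 UMI was found in 11.3%, 1.27% and 1.29% of ECs and in 88.4%, 79.7% and 86.8% of Pi16+ FBs. The exclusion of barcodes with a marker of another cell type removed 311, 10 and 23 Pi16+ barcodes, that is 31.6%, 11.8% and 10.2% of them. The same exclusion removed 34.5%, 14.1% and 15.4% of Pi16-zero barcodes. Without it the share of Pi16+ barcodes among Pdgfra+ ones was 37.0%, 7.99% and 10.8%.

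**Figure D2:**
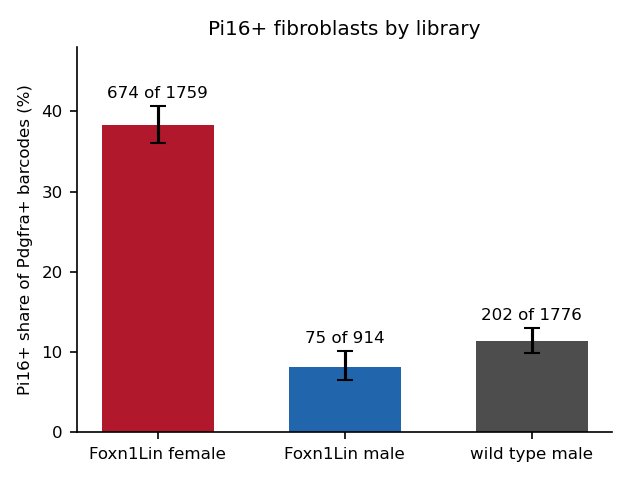
Pi16+ share of Pdgfra+ barcodes (percent) in each library, with 95% Clopper-Pearson intervals for counting error and the counts above each bar. The bar of the Foxn1Lin female library, at 38.3%, stands above the bars of both male libraries, at 8.21% and 11.4%.

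To find the genes that went with Pi16 in all 3 libraries, UMIs were summed per library and group and compared within libraries with edgeR's quasi-likelihood test, with the library as a block and Benjamini-Hochberg adjustment over 10595 genes. The 6 genes of the rule were left out. At an adjusted p under 0.05, 924 genes were higher in Pi16+ FBs, 8.72% of those tested, and 1158 were lower, 10.9%. Both counts were lower with thinned cells and without the library as a block, as given at the end. The 3 libraries differ in sex and genotype and stand in for replicates. With the library as a block, the spread behind each standard error (SE) is that of the difference within libraries. It includes how this difference varies with sex and genotype. In bulk sums a change in the level per cell and a change in how many members express a gene cannot be told apart.

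The genes with the largest rise were expressed at a low level or near 0 in Pi16-zero FBs. Mrgprg, an orphan receptor of the Mas-related family, was at 14.3, 42.6 and 140 CPM in Pi16+ FBs against 0.398, 0.770 and 0.231 (log2 fold change 7.42, SE 0.50, edgeR adjusted p = 9.74e-05). Sema3e, a secreted guidance factor for vessels and axons, was at 104, 91.8 and 71.7 against 1.99, 1.41 and 0.231 (6.44, SE 0.32, edgeR adjusted p = 4.88e-05). For neither gene did the groups overlap, and Mrgprg was highest in the wild type male library while Sema3e was highest in the Foxn1Lin female library. Edn1, the precursor of the vasoconstrictor endothelin 1, stood at 36.3, 56.8 and 65.4 against 3.78, 0.898 and 0.539 (5.22, SE 0.53, edgeR adjusted p = 0.000303). Ackr3 (CXCR7), a scavenging receptor for CXCL12, reached 355, 415 and 458 CPM against 22.7, 8.60 and 9.08 (5.06, SE 0.34, edgeR adjusted p = 8.53e-05). Dpp4 was at 194, 106 and 255.5 against 25.5, 2.31 and 3.62 (4.63, SE 0.55, edgeR adjusted p = 0.000599). Its groups did not overlap, and 37.7%, 21.6% and 38.1% of Pi16+ FBs thinned to 3000 UMIs held a Dpp4 UMI (58.6%, 44.0% and 55.4% unthinned), against 4.31%, 0.764% and 0.914% of thinned Pi16-zero FBs.

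Opcml also met the naming rule and is described above without its test. The other 6 genes named in this direction were Efhd1 and Car8, a calcium-binding mitochondrial protein and a carbonic anhydrase-related protein, Limch1, an actomyosin regulator, Smpd3, the neutral sphingomyelinase 2 of exosome release, Anxa3, an annexin, and Pcsk6, a proprotein convertase. Their log2 fold changes ran from 4.67 (Pcsk6) to 5.43 (Efhd1). Smpd3 was at 617, 380 and 441 CPM against 77.1, 7.96 and 6.85 (4.79, SE 0.55, edgeR adjusted p = 0.000511). Its groups did not overlap, and the Pi16-zero level was highest in the Foxn1Lin female library, as it was for Pcsk6, at 80.5, 7.32 and 4.54.

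The stretches just before the start of 3 of these genes, Sema3e, Ackr3 and Dpp4, are shown as examples. Like all genes named as higher, they were higher in Pi16+ FBs of all 3 libraries. Their windows lie wholly before the gene start of the annotation used for counting. Each is the 250 bases before the RefSeq start on GRCm38.p6, 5′ to 3′ in the direction of the gene, with capitals marking the TATA box letters TATAAA and the GC box letters GGGCGG on either strand. Sema3e lies on the plus strand (chr5:14025026-14025275), Ackr3 on the plus strand (chr1:90203730-90203979) and Dpp4 on the minus strand (chr2:62412232-62412481).
Sema3e: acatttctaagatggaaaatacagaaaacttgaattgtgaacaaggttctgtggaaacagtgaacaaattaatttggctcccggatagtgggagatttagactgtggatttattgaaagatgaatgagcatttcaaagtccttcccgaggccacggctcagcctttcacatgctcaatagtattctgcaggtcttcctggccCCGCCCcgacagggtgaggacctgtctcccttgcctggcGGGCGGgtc
Ackr3: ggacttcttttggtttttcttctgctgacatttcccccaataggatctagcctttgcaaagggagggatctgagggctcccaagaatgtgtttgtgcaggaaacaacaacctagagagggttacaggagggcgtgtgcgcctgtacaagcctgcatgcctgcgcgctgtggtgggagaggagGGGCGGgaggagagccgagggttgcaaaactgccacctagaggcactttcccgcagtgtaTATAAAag
Dpp4: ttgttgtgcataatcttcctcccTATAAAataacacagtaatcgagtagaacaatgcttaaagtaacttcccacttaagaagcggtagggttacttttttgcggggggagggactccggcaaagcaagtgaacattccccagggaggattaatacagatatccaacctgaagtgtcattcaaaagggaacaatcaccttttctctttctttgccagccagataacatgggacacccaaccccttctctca
The windows differed from one another. Sema3e held 2 copies of GGGCGG and 0 of TATAAA, Ackr3 held 1 of each, and Dpp4 held 1 copy of TATAAA and 0 of GGGCGG. Of 24 named genes 19 had a RefSeq window. GGGCGG occurred in 6 of the 9 windows of genes named as higher, in 4 of the 10 of genes named as lower and in 32.7% of all 32851 windows, and TATAAA in 2 of 9, 3 of 10 and 12.4%. A match of letters describes the window and is not evidence of a bound factor.

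Tnc (tenascin C, a matrix glycoprotein of remodeling tissue) was at 5.99, 22.9 and 13.5 CPM in Pi16+ FBs against 153, 290 and 305 (log2 fold change −4.32, SE 0.21, edgeR adjusted p = 4.88e-05). Ptn, the medullary gene, was at 81.3, 532 and 410 against 1002, 2695 and 2378 (−2.82, SE 0.24, edgeR adjusted p = 0.000154). The groups did not overlap for either gene, and Ptn was lowest in the Foxn1Lin female library in both groups. Of the thinned Pi16+ FBs 5.80%, 14.9% and 15.2% held a Ptn UMI, against 43.5%, 80.3% and 81.0% of Pi16-zero FBs. Tnfsf8 (CD30 ligand) was at 0.529, 10.9 and 11.4 against 11.4, 90.1 and 130 (−3.49, SE 0.22, edgeR adjusted p = 8.17e-05).

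Other genes named as lower were Ano1 (a calcium-activated chloride channel), Pcdh15 (an adhesion protein), Rgs16, Hdac9, Lin7a, Ifitm1, Prkg2 and Rapgef5, with log2 fold changes from −2.77 to −3.84. Ano1 was at 1.59, 2.19 and 9.35 CPM against 37.4, 77.1 and 72.6 (−3.84, SE 0.31, edgeR adjusted p = 0.00013). Ifitm1, an interferon-induced membrane protein, was at 23.4, 83.0 and 99.7 against 250, 680.5 and 410 (−2.81, SE 0.25, edgeR adjusted p = 0.000181). The groups did not overlap for either gene.

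**Figure D3:**
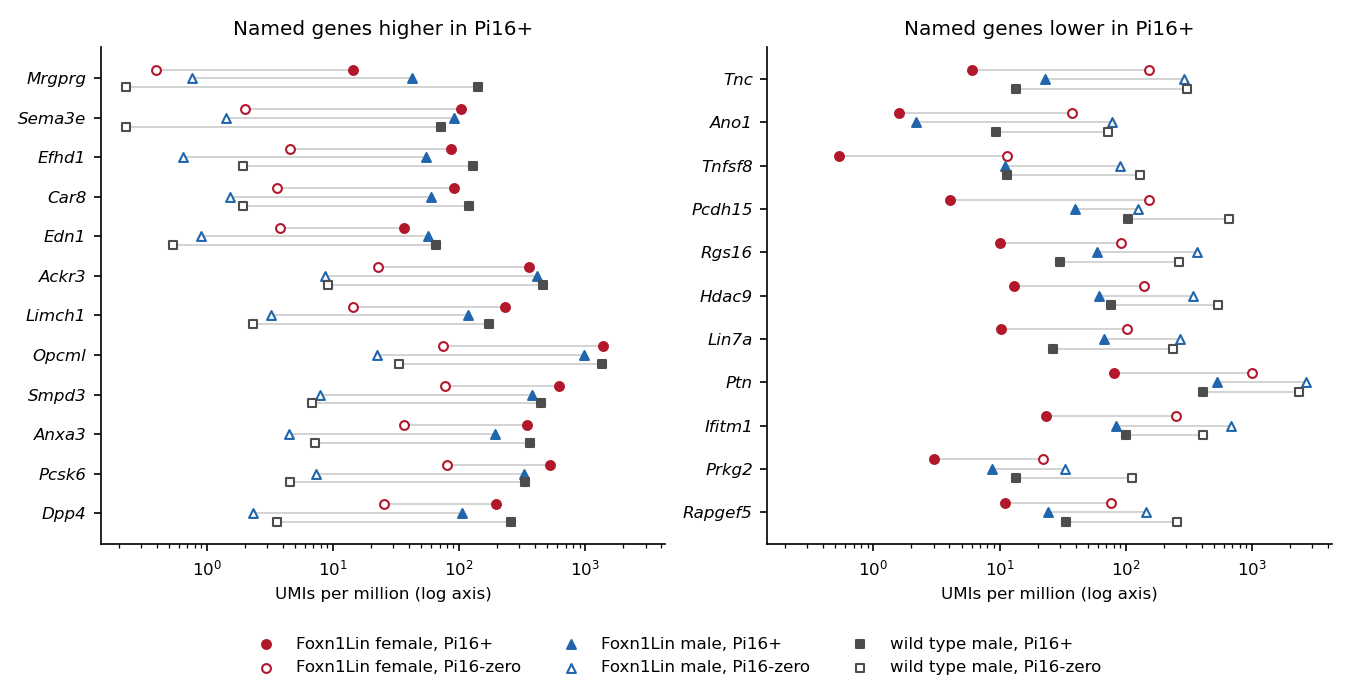
Level (CPM, log axis) of the named genes in Pi16+ and Pi16-zero FBs, 1 point per library and group and no error bar, since a group holds 1 sum per library. By the naming rule, the genes named as higher lie above, and those named as lower lie below, the Pi16-zero level in each library.

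The counts of the lists that follow stand beside 8.72% higher and 10.9% lower over all genes tested, and a share near these says nothing about a list. Genes known to mark adventitial fibroblasts in other organs went with Pi16. Of the 25 tested members of that list, with the genes that name these cells left out, 24 rose and 1 fell, with a median log2 fold change of 2.57 against −0.01 over all genes tested. Like the other lists it was chosen with earlier results of these data known, so its counts here and below are descriptions. Among its members are Dpp4 and Smpd3, which the study already names beside Pi16 for capsular FBs. Cd55, which protects cells from complement, was at 388, 179 and 344 CPM against 69.7, 24.9 and 64.1 (2.57, SE 0.14, edgeR adjusted p = 5.55e-05). Ly6c1, a surface protein of the Ly6 family, was at 355, 341 and 512 against 90.2, 86.1 and 79.4 (2.23, SE 0.18, edgeR adjusted p = 0.000123). The groups did not overlap for either gene. The member that fell was Il33, an alarmin held in the nucleus, at 200.1, 367 and 295 against 493.5, 1265 and 586 (−1.35, SE 0.17, edgeR adjusted p = 0.000863). Sema3c, another secreted guidance factor, passed with the largest spread (4.13, SE 1.15, edgeR adjusted p = 0.0361). It was at 1237, 197 and 523.5 CPM against 897, 4.36 and 6.47, and empty droplets held it at 2310, 25.7 and 41. The Pi16-zero level and the level in empty droplets were both far higher in the Foxn1Lin female library, and the part of free RNA in this was not tested.

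Both genes by which the study names medullary FBs fell. Ptn is given above, and Postn was at 64.2, 385 and 519 CPM against 421, 874 and 1386 (−1.75, SE 0.27, edgeR adjusted p = 0.00216). Of the genes of intermediary FBs, Gpx3 (a secreted glutathione peroxidase) rose, at 887, 575 and 644.5 against 734, 283 and 246 (0.90, SE 0.21, edgeR adjusted p = 0.0153). Inmt (a methyltransferase of indoles) was at 206, 187 and 175.5 against 254.5, 145 and 131 and did not pass (0.15, SE 0.17, edgeR adjusted p = 0.594).

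Matrix genes changed in both directions. Of 22 tested genes of elastic fibers and microfibrils 10 rose and 4 fell. Those that rose included Fbn1 (fibrillin 1), Fbln5 (fibulin 5), Loxl1 and Lox (cross-linking enzymes), Tnxb (tenascin X) and Mfap4. Fbn1 was at 1460, 814 and 1360 CPM against 481, 430 and 637 (1.21, SE 0.16, edgeR adjusted p = 0.00111). Fbn2, the fibrillin of developing tissue, fell from 43.0, 45.4 and 100.1 to 17.45, 8.74 and 24.9 (−1.73, SE 0.20, edgeR adjusted p = 0.000519). The groups of neither gene overlapped. Eln, the gene of elastin itself, was at 204, 68.8 and 225 against 218.5, 223 and 418 and did not pass (−0.83, SE 0.26, edgeR adjusted p = 0.0569).

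Of 20 tested genes of fibrillar collagens and their partners, 7 rose, with Pcolce2 and Col14a1 first. Pcolce2, an enhancer of procollagen processing, was at 432, 322 and 328 CPM against 49.0, 8.98 and 9.62 (4.41, SE 0.39, edgeR adjusted p = 0.000164). Col1a1 and Col3a1, the chains of collagens I and III, rose by smaller amounts, 0.83 and 0.60 on the log2 scale, and Plod1, Pcolce, Col6a2 and Col6a3 fell. Of 18 tested basement membrane genes 2 rose (Nid1 and Lamb2) and 5 fell (Col4a5, Col4a6, Col15a1, Lama2 and Nid2). Col15a1 was at 285, 436 and 387 against 645, 683 and 1111 (−1.11, SE 0.17, edgeR adjusted p = 0.0024). Of 10 tested small leucine-rich proteoglycans, Ogn and Omd rose and Bgn and Prelp fell.

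Of 24 tested matrix proteases and their inhibitors 7 rose and 7 fell. The aggrecanase Adamts5 was at 616, 652 and 671 CPM against 220, 155 and 206.5 (1.76, SE 0.15, edgeR adjusted p = 0.000151), and the inhibitor Timp2 rose too (1.69, SE 0.13, edgeR adjusted p = 0.000112). Mmp3, Mmp9 and Mmp11 were among those that fell. Of 13 tested genes of hyaluronan and prostaglandin metabolism 3 rose and 3 fell. Has1, a hyaluronan synthase, was at 432, 605 and 415.5 against 122, 83.4 and 61.5 (2.48, SE 0.21, edgeR adjusted p = 0.000147), while Cemip, which breaks hyaluronan down, fell (−2.16, SE 0.41, edgeR adjusted p = 0.00597). The Has1 groups did not overlap.

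Most tested factors that act on thymic epithelium or thymocytes were lower. Of 17 tested members of that list 10 fell, namely Ptn, Il7, Igf2, Bmp4, Mdk, Tslp, Flt3l, Hgf, Nrg1 and Pdgfa, and 1 rose. Nrg1 was nonetheless higher in Pi16+ FBs of the Foxn1Lin male library, at 14.2 against 8.98 CPM. The list median was −1.11. Il7, the cytokine that early thymocytes depend on, was at 1.94, 3.28 and 5.19 CPM against 15.1, 13.5 and 23.0 (−2.48, SE 0.28, edgeR adjusted p = 0.000458). Pi16+ FBs held 11, 3 and 10 Il7 UMIs. Empty droplets held Il7 at 24.0, 44.0 and 51.0 CPM, above both groups in each library. Igf2, Nrg1 and Pdgfa were also higher there than in either group, and the part of free RNA was not tested. Bmp4, which sustains Foxn1 expression in TECs, was at 12.2, 20.8 and 21.8 against 31.9, 107 and 76.6 (−1.78, SE 0.19, edgeR adjusted p = 0.000384). The member that rose was Fgf18, at 36.3, 7.65 and 11.4 against 7.17, 3.34 and 1.77 (2.22, SE 0.29, edgeR adjusted p = 0.000908). The groups did not overlap for Il7, Bmp4 or Fgf18, but for Fgf18 the margin was narrow. Its lowest Pi16+ level was 7.65 CPM in the Foxn1Lin male library (7 UMIs, counting interval 3.08 to 15.8). The highest Pi16-zero level was 7.17 in the Foxn1Lin female library (5.02 to 9.93). Fgf7 and Fgf10, the ligands of the epithelial FGFR2 receptor, had log2 fold changes of 0.23 (SE 0.21, edgeR adjusted p = 0.539) and 0.07 (SE 0.24, edgeR adjusted p = 0.884), and Kitl (stem cell factor) −0.25 (SE 0.28, edgeR adjusted p = 0.608).

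Of 26 tested WNT and BMP ligands and antagonists 9 rose and 6 fell. Sfrp2, a secreted WNT antagonist, was at 136, 85.2 and 124 CPM against 33.9, 4.62 and 7.39 (3.26, SE 0.39, edgeR adjusted p = 0.000614). The ligand Wnt5a rose (1.70, SE 0.21, edgeR adjusted p = 0.000704), and Wnt10b was found with 63, 10 and 39 UMIs in Pi16+ FBs against 0, 3 and 0. Bmp5, Inhba, Wnt4, Dkk2, Gdf15 and Tgfb2 fell.

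Of 24 tested chemokines and cytokines 11 fell and 3 rose (Il1rl2, Ccl2 and Csf1). Ccl19, which guides T cells and thymocytes, was at 73.2, 168 and 147.5 CPM against 361.5, 839 and 551 (−2.17, SE 0.15, edgeR adjusted p = 9.74e-05). Ccl19 and Ccl21a have near-identical gene copies, so their counts are uncertain. Il34, a ligand of the CSF1 receptor, was at 39.7, 96.2 and 94.5 against 174.5, 398 and 426 (−2.12, SE 0.13, edgeR adjusted p = 8.17e-05). Neither gene's groups overlapped. Cxcl12, the ligand of Ackr3, was at 190, 164 and 159 against 377, 136 and 218 and did not pass (−0.41, SE 0.21, edgeR adjusted p = 0.234).

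Of 21 tested genes of antigen presentation and the interferon response, 13 fell and the other 8 did not pass, with a median of −0.74. B2m, the light chain of MHC class I, was at 1199, 2132 and 3122 CPM against 1758, 3539 and 4257 (−0.57, SE 0.13, edgeR adjusted p = 0.0139). The levels of both groups overlapped across libraries, and B2m was lower in Pi16+ FBs within each. Class II genes fell as well, but H2-Aa was at 32.8, 14.2 and 74.8 against 102, 80.6 and 128 where empty droplets held it at 794, 1666 and 1534, so its level in FBs was far below that of free RNA. Of 13 tested complement genes Cd55 rose and 5 fell, and C3, the central component, was at 3459, 4119 and 4921 against 4016, 3972 and 4947 (−0.05, SE 0.12, edgeR adjusted p = 0.832).

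Of 38 tested transcription factors 9 rose and 13 fell. Osr1 and Ebf2, of fibroblast and adipocyte progenitors, rose by 2.03 (SE 0.18, edgeR adjusted p = 0.000181) and 1.81 (SE 0.19, edgeR adjusted p = 0.000387) on the log2 scale. Meox1 and Nr2f2 were among those that fell, by −1.96 (SE 0.17, edgeR adjusted p = 0.000155) and −1.71 (SE 0.13, edgeR adjusted p = 0.000112). Of 10 tested retinoid genes Aldh1a3, Rbp4 and Dhrs3 rose and Rdh10 fell. Of 18 tested genes of adipogenesis Vit and Ebf2 rose and Fmo2 and Plin2 fell, close to the shares of 8.72% and 10.9% over all genes. Pparg, the master regulator of fat cells, did not pass (0.83, SE 0.47, edgeR adjusted p = 0.283).

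Of 17 tested genes linked to senescence 5 rose and 6 fell. Igfbp5 was at 958, 873 and 1566 CPM against 209, 120 and 179 (2.74, SE 0.19, edgeR adjusted p = 9.74e-05). Its groups did not overlap. Cdkn2a, the p16 gene, was at 2.82, 26.2 and 16.6 against 16.3, 35.2 and 34.0 (−1.26, SE 0.33, edgeR adjusted p = 0.0272), and Cdkn1a (p21) at 263, 268 and 167 against 264, 299.7 and 121 did not pass (0.10, SE 0.15, edgeR adjusted p = 0.716). Of 7 tested growth hormone and steroid receptors Esr1 rose by 0.63 (SE 0.13, edgeR adjusted p = 0.00952), and Nr3c2, Ghr and Thrb fell. Of 22 tested immediate early and dissociation genes Myc and Fosl2 rose, close to the 8.72% over all genes, and 6 fell. The heat shock gene Hspa1a was at 89.9, 257 and 303 against 555, 1411 and 1208 (−2.35, SE 0.16, edgeR adjusted p = 9.74e-05), while Fos did not pass (−0.10, SE 0.13, edgeR adjusted p = 0.643). The part of dissociation in these values was not tested.

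**Figure D4:**
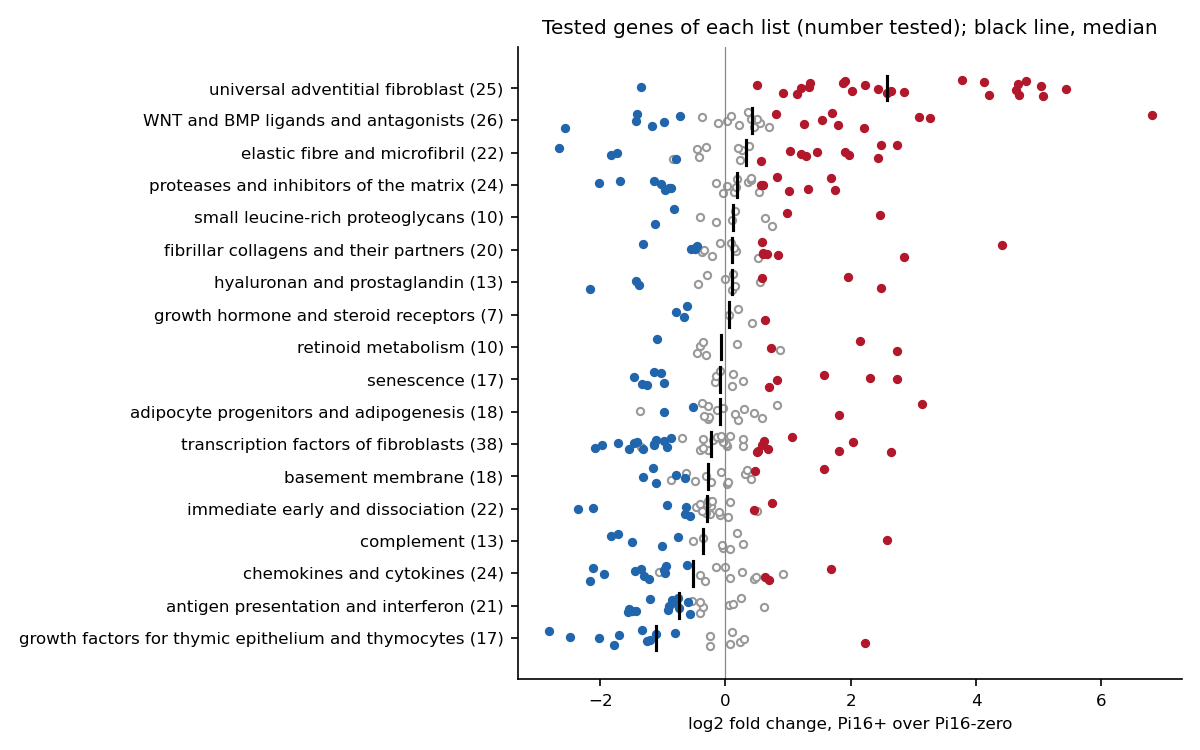
Log2 fold change of Pi16+ over Pi16-zero FBs for each tested gene of each list, 1 point per gene, with the number tested in parentheses and a black line at the list median. Filled red points passed as higher and filled blue points as lower (edgeR adjusted p under 0.05), and open grey points did not pass. Of the lists plotted, the adventitial one lies farthest to the right, with a median of 2.57. The growth factors for thymic epithelium and thymocytes lie to the left, at −1.11. The medullary FB genes and the Schwann cell markers, with 2 genes tested each, had medians of −2.29 and −1.38.

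Markers of other cell types were also summed in Pi16+ FBs. The 9 markers of vascular smooth muscle cells and pericytes summed to 260, 409 and 163 CPM against 610, 800 and 615 in Pi16-zero FBs, and 3 of the 9 tested fell (Des, Notch3 and Tagln). In the Foxn1Lin male library, where this sum was highest, a single barcode held 88.1% of the Acta2, 89.3% of the Myh11 and 85.5% of the Tagln UMIs of Pi16+ FBs, which were at 64.5, 81.9 and 83.0 CPM. The 9 EC markers summed to 87.8, 36.1 and 33.8 against 157, 105 and 101, with Plvap and Emcn lower among 5 tested and 0, 3 and 0 of the markers at 0. The 9 TEC markers summed to 109, 26.2 and 45.2 against 148, 39.0 and 49.8, with 0, 4 and 2 at 0. The 9 hematopoietic markers summed to 42.0, 7.65 and 8.83 against 58.0, 16.0 and 17.8, with 0, 7 and 5 at 0. Markers of Schwann cells summed to 5.46 to 17.98, those of fat cells to 0 to 9.87 and those of tendon and muscle to 0.519 to 1.23. Of the 6 markers of mesothelial cells (MECs), Wt1, a transcription factor, made up nearly all of the sum of 298, 261 and 269. Wt1 was at 292, 260 and 265 against 206, 25.7 and 75.4 (1.82, SE 0.43, edgeR adjusted p = 0.018).

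Pi16-zero FBs are mixed, so Pi16+ FBs were also set against FBs with at least 2 Ptn UMIs and no Smoc2 (Ptn+ FBs, 228, 483 and 769 barcodes) and against FBs with at least 2 Smoc2 UMIs and no Ptn (Smoc2+ FBs, 290, 50 and 121 barcodes). Both had 0 Pi16 UMIs, and all 3 groups entered 1 fit over 10578 genes. Against Ptn+ FBs 1218 genes were higher (11.5% of those tested) and 1461 lower (13.8%). Against Smoc2+ FBs the numbers were 290 (2.74%) and 219 (2.07%). The comparisons share the Pi16+ sums, and the difference between them was not tested. In the fits without the Foxn1Lin female library 800 genes were higher and 893 lower against Ptn+ FBs, and 123 and 89 against Smoc2+ FBs. Against Smoc2+ FBs 171 and 74 passed without the wild type male library and 215 and 137 without the Foxn1Lin male library.

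Against Ptn+ FBs the named genes were Sult1e1, Mrgprg, Pcsk6 and Adgrd1 as higher, beside Opcml, and Tnc, Pcdh15, Ano1, Sele and Tnfsf8 as lower. Sult1e1, the estrogen sulfotransferase, had 8, 317 and 473 UMIs in Pi16+ FBs against 0, 2 and 1. Adgrd1, an adhesion receptor, was at 1085, 913.5 and 937 CPM against 19.1, 3.82 and 6.67 (6.96, SE 0.32, edgeR adjusted p = 1.53e-08). Sele (E-selectin) was at 4.41, 5.46 and 8.83 against 149, 35.7 and 29.9 (−3.66, SE 0.49, edgeR adjusted p = 9.31e-05). The groups did not overlap for Adgrd1 or Sele. Wt1 was at 7.14, 9.13 and 5.51 in Ptn+ FBs (5.20, SE 0.24, edgeR adjusted p = 1.6e-08).

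Some list genes that had not passed against Pi16-zero FBs passed here. Fgf7 was at 42.8, 62.3 and 39.99 CPM against 14.3, 22.7 and 20.6 in Ptn+ FBs (1.31, SE 0.18, edgeR adjusted p = 0.00012), and Pparg rose too (3.45, SE 0.37, edgeR adjusted p = 1.45e-05). Eln fell (−1.24, SE 0.20, edgeR adjusted p = 0.000376). Il7, lower than in Pi16-zero FBs, was lower here as well (−2.68, SE 0.33, edgeR adjusted p = 3.9e-05). Of the lists, 23 of 25 adventitial genes were higher and 15 of 21 antigen presentation genes lower, beside 11.5% higher and 13.8% lower over all genes in this comparison.

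Against Smoc2+ FBs 21 of 25 adventitial genes were higher in Pi16+ FBs, with a median of 1.89, beside 2.74% of all genes. Postn (−0.03, SE 0.43) and Wt1 (−0.08, SE 0.19, edgeR adjusted p = 0.922) did not pass. Dpp4 was at 35.0, 25.7 and 30.9 CPM in Smoc2+ FBs (2.64, SE 0.33, edgeR adjusted p = 0.000627), and Sema3e had 590, 84 and 138 UMIs in Pi16+ FBs against 3, 0 and 0. The other genes named as higher were Mrgprg, Limch1, Cmah and Car8. Gpx3 and Inmt, the genes of intermediary FBs, were lower in Pi16+ FBs here, by −0.54 (SE 0.13, edgeR adjusted p = 0.0342) and −0.61 (SE 0.16, edgeR adjusted p = 0.0476). Of 21 antigen presentation genes 0 passed against Smoc2+ FBs in either direction by edgeR or DESeq2, with 3 lower and 1 higher at an unadjusted edgeR p under 0.05 and a median of −0.32, beside 2.07% of all genes lower. Of 16 growth factor genes Il7 and Mdk were lower and 0 higher by edgeR, and by DESeq2 1 was lower and 0 higher. At an unadjusted edgeR p under 0.05 Bmp4, Fgf10, Fgf7 and Tslp were lower too, and 3 were higher (Bmp2, Fgf18 and Pdgfa).

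The genes named as lower than in Smoc2+ FBs were Pappa, Mmp3, Chrm3, Tll1 and Steap4. Tll1 (edgeR adjusted p = 0.0384) did not pass without the Foxn1Lin male (edgeR adjusted p = 0.178) or the wild type male library (edgeR adjusted p = 0.25). Pappa, a protease that frees insulin-like growth factors, was at 29.6, 90.7 and 37.9 CPM against 147, 311 and 155 (−2.06, SE 0.16, edgeR adjusted p = 2.45e-05). Its groups did not overlap. Has1, higher than in Pi16-zero FBs, did not pass against Smoc2+ FBs (0.62, SE 0.25, edgeR adjusted p = 0.223).

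Pi16+ FBs also varied among themselves. After thinning to 3000 UMIs, the variance of a gene's UMIs over its mean had a median of 1.20, 1.21 and 1.21 over 2317 genes in 655, 74 and 197 barcodes. The 10 genes with the highest mean rank were Gm42418, Csmd1, Mgp, Malat1, Apod, Igfbp5, Gsn, Ptn, Ccl2 and Tnfaip6. Mgp, an inhibitor of calcification, was found in 57.7%, 43.2% and 47.7% of members with a ratio of 43.4, 30.9 and 11.6. Csmd1, a complement regulator, was found in 22.1%, 27.0% and 40.1% with a ratio of 30.2, 24.5 and 25.6. Ptn was found in 5.80%, 14.9% and 15.2% of members with a ratio of 8.10, 12.5 and 10.8, so a minority of members held most of it. These values are descriptions over cells, which are not replicates.

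Whether Pi16+ FBs carried a TEC history was read from the reporter transcript. With each barcode thinned to 3000 UMIs, 36 of 655 members (5.50%, 95% Clopper-Pearson interval 3.88 to 7.53) of the Foxn1Lin female and 2 of 74 (2.70%, 0.329 to 9.42) of the Foxn1Lin male library held at least 1 reporter UMI. Without thinning the shares were 13.1% and 13.3%. In the wild type male library, whose label names no reporter, 0 of 197 held it and its empty droplets were at 0 CPM. Thinned ECs, which should lack a TEC history, held it in 13.3% and 13.5% of barcodes, and TECs in 78.0% and 87.0%. The share in Pi16+ FBs was below that in ECs of both libraries and is not read as expression of the reporter, and the part of free RNA in it was not tested. Empty droplets held the reporter at 237 and 580.5 CPM against 17.1 and 17.5 in Pi16+ FBs.

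Between libraries only ratios of levels can be given, since each group is 1 library. Genes with at least 30 UMIs over both libraries were counted when they differed at least 4-fold, with a count of 0 taken as 3. From the Foxn1Lin male to the Foxn1Lin female library 227 of 10571 genes were higher in the female (2.15%) and 70 lower (0.662%). Between the males 20 of 8647 genes were higher in the Foxn1Lin male (0.231%) and 87 in the wild type male (1.01%). Genes named as higher in the female were Igkc, Xist, Gm19951, Ighm and Gm11867, and those named as lower were Sult1e1, Uty, Adgrb3, Ddx3y and Fetub. Xist and the Y-linked Uty and Ddx3y followed the labelled sexes. A single barcode held 69.7% of the Igkc and 64.8% of the Ighm UMIs in the female, and 83.6% of Adgrb3 in the male.

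Sult1e1 was at 1.41, 346 and 246 CPM in Pi16+ FBs and was found in 7, 28 and 59 barcodes, so that both male libraries lay above the female one. In Pi16-zero FBs it was at 0.398, 24.5 and 9.77.

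Genes named as higher in the Foxn1Lin male than in the wild type male library were Acta2, Pcdh9, Myh11, Cxcl13 and Ctnna3. A single barcode held 88.1% of the Acta2, 89.3% of the Myh11 and 57.4% of the Ctnna3 UMIs. Cxcl13, a B cell chemokine, was at 250, 2127 and 245 CPM in Pi16+ FBs and was found in 186, 45 and 58 barcodes, with at most 14.4% of a library's UMIs in 1 barcode. Genes named as lower were Cilp, Rsad2, Lgr5, Mfap4 and Cmah. Mfap4 was at 67.7, 5.46 and 69.1, and Cmah, which makes a sialic acid, at 88.5, 20.8 and 181. In both cases the Foxn1Lin male library was lowest, and it held the fewest members, 75.

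**Figure D5:**
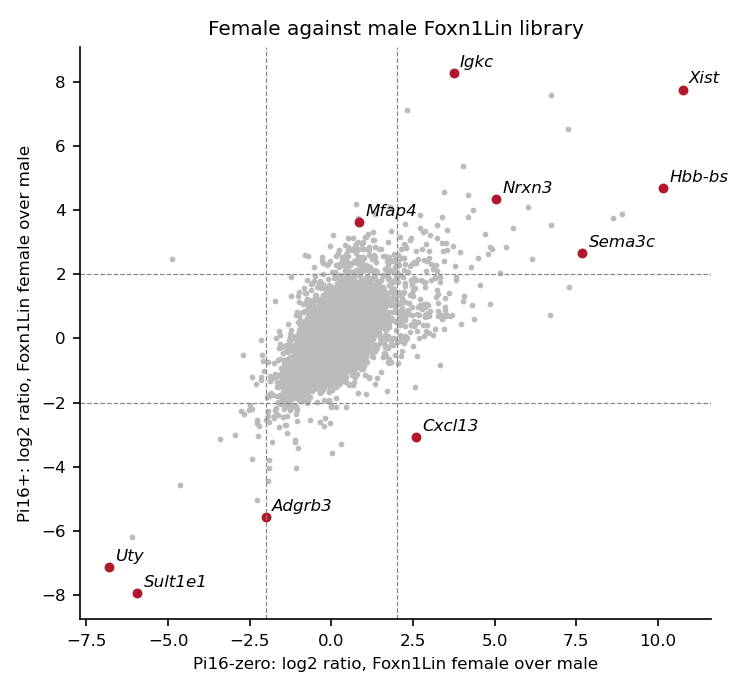
Log2 ratio of levels between the Foxn1Lin female and Foxn1Lin male libraries, in Pi16-zero FBs (horizontal axis) and Pi16+ FBs (vertical axis). Each point is a gene, dashed lines mark 4-fold and selected genes are labelled in red, with 1 library per group and so no error. Xist, Uty and Sult1e1 lie far out on both axes, while Cxcl13 was higher in the female in Pi16-zero FBs and higher in the male in Pi16+ FBs.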

How the data were processed

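Stroma depleted of CD45+ cells was profiled with 10x 3′ single-cell RNA sequencing. Per the labels, the authors made the UMI counts per gene and barcode with Cell Ranger 7.01 on mm10 (GRCm38.p5) with a reporter sequence added. The percent values deposited in the run summaries (saturation, reads in cells) were used for depth. Whether intron reads were counted is not given in the sources used here.

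The members, gene lists and rules were chosen with earlier results of these data known. Features sharing a symbol (40 symbols) were summed, and levels were scaled to 1000000 UMIs. Empty droplets were barcodes of 22 to 533 UMIs, within limits set per library. UMIs were summed per library and group and tested with edgeR 4.0.16 (R 4.3.3, quasi-likelihood, TMM, library as block, genes of at least 5 CPM on average). On simulated sums of the Pi16+ against Pi16-zero comparison (10552 genes) 80% of genes changed by 1 and 100% of those changed by 2 on the log2 scale were recovered, with 6 false calls. Libraries stand in for replicates, so p-values rest on how the difference between groups varies from library to library. Cells were thinned to 3000 UMIs for shares of cells.

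Named were the 12 genes with the largest log2 fold change in each direction among those past the threshold, changed the same way in all 3 libraries and at 50 CPM or more in the higher group. For the other fits and between libraries 5 were named in each direction. Some genes that these rules or lists hold are not reported here. Scrublet marked 0, 5 and 1 barcodes and so did not work as a caller, and doublets stayed in except in an alternative that removed the highest scores up to the stated rate of 3.9%. Intervals cover counting error only. Alternatives used DESeq2 1.42.0, other filters, thresholds and depths, no block, and each library left out.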

Additional observations from a re-analysis of the deposited data

Results flagged for a closer look

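For 6 of the list genes reported here, leaving out markers of other cell types, the log2 ratio of Pi16+ over Pi16-zero FBs was beyond 1 in one library and beyond −1 in another. These differences were not tested, and each library is a single sample. Cxcl13 had a ratio of 4.58 in the Foxn1Lin male and −1.11 in the Foxn1Lin female library, with 1947 and 1420 Pi16+ UMIs in 45 and 186 barcodes. Fabp4 had 3.63 in the wild type male, where 1 barcode held 92.7% of its 506 UMIs, and −1.7 in the Foxn1Lin male library. Cd36 had 1.4 in the wild type male (18 UMIs, 77.8% of them in 1 barcode) and −2.6 in the Foxn1Lin male library (2 UMIs). Chrdl1 had 1.31 in the wild type male and −1.01 in the Foxn1Lin male library (25 and 6 UMIs), and Col12a1 had 1.01 and −1.25 (75 and 10 UMIs). Col8a1 had 1.02 in the Foxn1Lin female and −2.38 in the Foxn1Lin male library (112 and 3 UMIs).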

How the results depend on the processing

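Directions held for the named genes in all alternatives run, and none reversed. The naming rule already asked for the same direction in all 3 libraries, so a reversal was hardly possible and this is no separate support. Without the library as a replicate block, which pairs both sums of a library, 271 genes were higher and 291 lower against Pi16-zero FBs, 625 and 639 against Ptn+ FBs, and 48 and 20 against Smoc2+ FBs. Against Pi16-zero FBs 8 of the 24 named genes no longer passed in that fit. Of 10 genes named against Ptn+ FBs 8 passed in each alternative run, and of 10 named against Smoc2+ FBs 5 did, the others being Tll1, Chrm3, Mrgprg, Cmah and Pappa. With cells thinned to 3000 UMIs 549 were higher and 740 lower against Pi16-zero FBs. Leaving out a library in turn gave 639 to 880 higher and 791 to 1114 lower against Pi16-zero FBs, 800 to 1017 and 893 to 1145 against Ptn+ FBs (lowest without the Foxn1Lin female library), and 123 to 215 and 74 to 137 against Smoc2+ FBs. The counts against Smoc2+ FBs were 490 and 388 without the gene filter and 183 and 110 with Pi16 at 1 UMI or more, and 344 were lower with 3 or more. DESeq2 gave 789 and 905, 985 and 1092, and 265 and 202. The Pi16+ share was 53.8%, 11.7% and 16.0% with Pi16 at 1 UMI or more, 30.8%, 6.78% and 9.35% with 3 or more, and 24.1%, 5.41% and 7.27% when thinned. The reporter share of the lineage trace libraries was 13.1% and 13.3% unthinned and 0.458% and 0% with at least 2 UMIs. The cause of these changes was not tested. Between the Foxn1Lin libraries 136 and 27 genes passed 4-fold when thinned, with 5977 genes compared in place of 10571 and 2.73% of them past 4-fold in place of 2.81%. Between the males 13 and 23 passed, of 2899 in place of 8647, and the share was 1.24% in both. With at least 100 UMIs 90 and 25 of 7321 genes passed (1.57%), and between the males 4 and 18 of 4841 (0.454%).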
